A study of Mus musculus with 11 samples.

Results

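The genes described here are 10 transcription factors of blood stem cells, multipotent progenitors and myeloid cells that are known to be shut down as thymocytes commit to the T cell lineage: Spi1, Lmo2, Lyl1, Mef2c, Hhex, Bcl11a, Meis1, Erg, Gfi1b and Cebpa. They were listed by name, and for each the estimated counts were summed over its annotated transcripts in every library. They are 10 of 35896 genes with a transcript in the data. RNA came from double negative (DN) thymocytes, which express neither CD4 nor CD8, of C57BL/6J mice at the DN2 and the DN3 stage. Of the 11 libraries, 6 were WT, with 3 at each stage, and 5 were Arpp21-/-, with 2 at DN2 and 3 at DN3. Arpp21-/- mice carry a CRISPR/Cas9 deletion of an exon of Arpp21, an RNA-binding protein of thymocytes, that removes the long isoform, while a short isoform of the gene can still be made. Mice of both sexes and of various ages were used, with ages not given per library, CD4- and CD8-positive cells were removed by antibody and complement before the sort, and DN stages were gated on CD44 and CD25. Nothing states that libraries came from separate animals, so p values measure only the spread between these samples, which may be technical.

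DN2 thymocytes still hold part of the gene expression program of the bone marrow progenitors that seed the thymus and can, when Notch signals are withdrawn, turn to other fates. During the passage from DN2 to DN3 this program is shut down, the T cell program of Tcf7, Gata3 and Bcl11b takes over and the T cell receptor β locus begins to rearrange. Several of the 10 factors are T cell oncogenes when they stay on, among them Lmo2, Lyl1, Mef2c and Hhex, which is why their silencing has been studied closely.

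The members belong to several families of DNA-binding or adaptor proteins. Spi1 (PU.1) and Erg are ETS factors, Lyl1 is a basic helix-loop-helix (bHLH) factor and Lmo2 the LIM adaptor that bridges bHLH and GATA factors. Hhex and Meis1 are homeodomain proteins, Gfi1b and Bcl11a zinc finger repressors, Mef2c a MADS box activator and Cebpa a leucine zipper activator of myeloid genes. In GRCm38 coordinates, with the bounds of the GENCODE M21 annotation, all 10 were protein-coding genes, for example Spi1 at chr2:91082390-91115756 on the plus strand, Lyl1 at chr8:84701457-84704715 on the plus strand, Hhex at chr19:37434810-37440731 on the plus strand and Erg at chr16:95359169-95586593 on the minus strand. An exon of Lyl1 overlapped an exon of Nfix on the other strand, and the library kit did not mark strand, so reads from the shared stretch cannot be told apart. Nfix stood at a mean of 9.91 CPM in DN2 WT and 6.72 CPM in DN3 WT.

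RefSeq promoter windows (GRCm38.p6, 250 bases before to 50 bases after an annotated start) were at hand for 8 of the 10 members, 12 windows in all. Spi1 and Lmo2 had none. The windows were searched on both strands for 4 short motifs, chosen after the expression values were known: the ETS motif AGGAAGT, the GATA motif AGATAA, the E-box CAGCTG and the RUNX motif TGTGGT. Among all 32851 windows, 9.35% held the ETS motif, 11.2% the GATA motif, 16.3% the E-box and 16.8% the RUNX motif. In the windows of the 8 members there were 2 matches, shown here because they were the sole ones, each read along the gene's strand with the motif in capitals. The capitals of the Erg stretch (chr16:95459438-95459459, minus strand) are the GATA motif read on the opposite strand, and those of the Meis1 stretch (chr11:19019122-19019143, minus strand) are the RUNX motif.
Erg: agggtctcTTATCTctccactc
Meis1: cctgggtgTGTGGTgttagtgc
A match describes letters in a window and not a bound site, and the lack of a match says only that these letters were not in that window.

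Library totals ran from 14531762 to 63109504 estimated counts. CPM (counts scaled to the size of the library) are given on the scale of TMM normalization, on which 3 counts in a library, taken here as the floor, were worth between 0.0802 and 0.242 CPM. The Arpp21 transcript sum was 125 to 183 CPM in DN2 WT and 28.5 and 86.9 CPM in DN2 Arpp21-/- and overlapped between genotypes at DN3 (312 to 386 against 142 to 335 CPM), and as the remaining exons are still counted it checks the labels only in part. T identity genes such as Ptcra, which encodes the pre-T cell receptor α chain (1.83 CPM in DN2 WT, 398 CPM in DN3 WT), and Cd34, a progenitor surface marker (135 CPM and 0.735 CPM), matched the labelled stages. Both DN2 replicate 2 and DN3 replicate 3 stood apart from the other Arpp21-/- libraries, and the log2 CPM of a gene varied more among Arpp21-/- libraries (median SD 0.985 at DN2 and 0.432 at DN3) than among WT libraries (0.196 and 0.126). The counts of members called and the estimates that rest on these libraries are therefore given with and without them. In bulk RNA, fewer cells with a transcript and less of it per cell cannot be told apart.

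The main comparison asked how the 10 factors changed between DN2 and DN3 in unmutated cells. In WT thymocytes 8 of the 10 were tested and 8 were lower at DN3 (edgeR's quasi-likelihood test, Benjamini-Hochberg adjusted p under 0.05), where 9.72% of the 12472 genes tested were lower and 6.32% were higher. Over all genes that was 1212 lower and 788 higher, a split that became 810 lower and 945 higher with limma on log2(TPM + 1). The median log2 fold change of those 8 was -3.75, beside -0.0018 over all genes tested, and Meis1 and Cebpa did not pass the filter on low counts. Lyl1, Hhex and Lmo2, at 14.5 estimated counts or fewer in each DN3 WT library, passed this filter only through DN2. They could therefore not be called higher at DN3, which bears on the count and on the median. Over the whole list of 10, every DN3 WT library was below every DN2 WT library for 9, Cebpa being the exception, while such a complete separation downward held for 18.5% of the genes tested. The sizes ranged from a level at DN3 of 50.5% of the DN2 mean for Bcl11a to none detected for Lyl1.

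**Figure D1:**
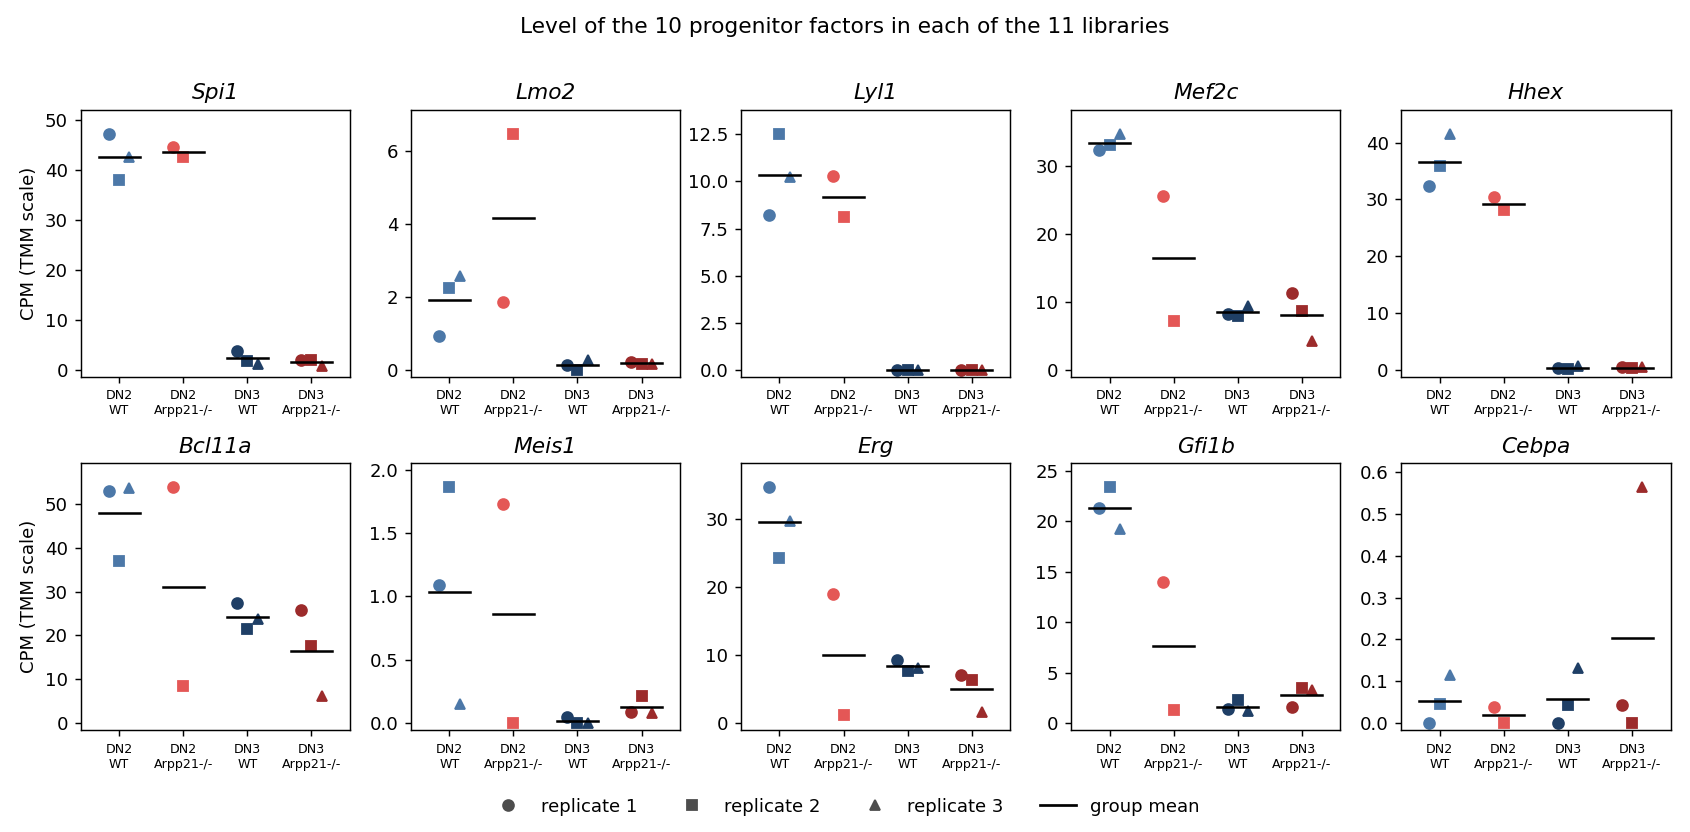
Level of each of the 10 factors in CPM on the TMM scale (vertical axis, linear, its own range for each gene) in the 11 libraries grouped by stage and genotype, with points for libraries, shapes for replicate numbers and bars for group means. Spi1, Lyl1 and Hhex were near 0 in all 6 DN3 libraries, while Bcl11a, Erg and Mef2c kept a clear level there, and DN2 Arpp21-/- replicate 2 (square) lay far below replicate 1 for Mef2c, Bcl11a, Erg and Gfi1b.

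Spi1 encodes PU.1, the ETS factor that drives macrophage, B cell and dendritic cell fates and that is kept on in early thymocytes. It stood at 47.4, 38.1 and 42.7 CPM in the 3 DN2 WT libraries and at 3.79, 1.75 and 1.19 CPM in the 3 DN3 WT libraries. The groups were far apart, and the mean fell from 42.7 ± 4.66 to 2.24 ± 1.37 CPM (SD, n = 3 each), which left 5.25% of the DN2 mean (log2 fold change -4.27, SE 0.414, adjusted p = 6.38e-04). Of its 4 annotated transcripts, Spi1-201 held 95.5% of the gene's counts in DN2 WT on average.

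Erg, an ETS factor needed by blood stem cells, fell much less. It stood at 34.6, 24.2 and 29.6 CPM in DN2 WT and at 9.22, 7.68 and 8.09 CPM in DN3 WT. The libraries did not overlap, and the DN3 mean was 28.2% of the DN2 mean (log2 fold change -1.83, SE 0.206, adjusted p = 0.00118). Its counts were spread over Erg-202, Erg-203 and Erg-207, at 16.9%, 33.5% and 38.1% of the total in DN2 WT. Of these, Erg-207 held 17.3% in DN3 WT, with single libraries between 0% and 32%, and shares among transcripts that differ little are uncertain estimates.

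Lyl1 showed the most complete change. It had 8.24, 12.6 and 10.2 CPM in DN2 WT, from 190 to 276 estimated counts, and no count in any of the 3 DN3 WT libraries. Against the floor of 3 counts per library (a mean of 0.133 CPM), DN2 WT was at least 77.9-fold higher (adjusted p = 6.20e-04). The gene had 1 annotated transcript, and its counts in DN2 WT were not all whole numbers, so a few of its reads were shared with other transcripts.

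Lmo2, whose protein binds Lyl1 and Tal1 without touching DNA itself, was already low at DN2. Its levels were 0.915, 2.23 and 2.57 CPM in DN2 WT, or 21, 49 and 67 counts, and 0.137, 0 and 0.265 CPM in DN3 WT, or 3, 0 and 6 counts. All DN3 libraries were lower, with 7.04% of the DN2 mean left, and the change passed the test narrowly (log2 fold change -3.79, SE 0.991, adjusted p = 0.0393). That call was lost without DN2 WT replicate 2 or 3 or without any of the 3 DN3 WT libraries, with adjusted p between 0.0804 and 0.153.

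Hhex, a homeodomain repressor of lymphoid progenitors, was among the most abundant of the 10 at DN2. It had 32.3, 35.8 and 41.6 CPM in DN2 WT and 0.365, 0.0853 and 0.663 CPM in DN3 WT. The DN3 values rest on 2.00 to 14.5 estimated counts per library and came to 1.02% of the DN2 mean, a fold of 98.5 between the means (log2 fold change -6.62, SE 0.524, adjusted p = 2.52e-04). Hhex-201 held 96.7% of its counts in DN2 WT.

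Meis1, a homeodomain partner of HOX proteins in stem cells, was close to the floor. It had 25, 41 and 4 counts in the DN2 WT libraries, or 1.09, 1.86 and 0.153 CPM, and 1 count among the 3 DN3 WT libraries. Summed over libraries, 70 counts against 1 gave a DN2 level 67.0 times that of DN3, with an exact 95% interval of 11.6 to 2683 that covers counting error alone. Without the filter on low counts it was called lower (adjusted p = 0.0276). DN2 WT replicate 3, at 0.153 CPM, lay far below the other DN2 WT libraries.

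Gfi1b, a SNAG domain repressor best known from red cells and platelets, had 21.3, 23.4 and 19.2 CPM in DN2 WT and 1.37, 2.30 and 1.19 CPM in DN3 WT. The groups were well separated, with 7.62% of the DN2 mean left (log2 fold change -3.72, SE 0.320, adjusted p = 3.63e-04). Gfi1b-201 and Gfi1b-204 held 73.3% and 26.7% of its DN2 WT counts.

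Bcl11a, a repressor needed for B cell and early lymphoid progenitors, had the smallest change among the called members. It stood at 52.9, 37.0 and 53.7 CPM in DN2 WT and at 27.5, 21.4 and 23.6 CPM in DN3 WT. Its groups did not overlap, but 50.5% of the DN2 mean was left (log2 fold change -0.99, SE 0.196, adjusted p = 0.0134), and the call was lost without DN3 WT replicate 2 (adjusted p = 0.0732) or replicate 3 (adjusted p = 0.0653). The longest of its coding transcripts, Bcl11a-202, held 39.1% of counts in DN2 WT and 45.7% in DN3 WT, while Bcl11a-201 held 21.9% and 11.3%. Bcl11a-204, also coding, held 21.9% and 19.6%. Bcl11a-205, annotated as a retained intron, held 17.2% and 23.2%, so part of the gene's level came from a transcript not annotated as coding.

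Mef2c, a MADS box factor active in lymphoid and myeloid progenitors, was at 32.3, 33.1 and 34.7 CPM in DN2 WT and at 8.17, 7.85 and 9.33 CPM in DN3 WT. Its libraries agreed closely within each stage, and 25.3% of the DN2 mean was left (log2 fold change -1.99, SE 0.174, adjusted p = 3.86e-04). It had 31 annotated transcripts, of which Mef2c-227 (26.9%), Mef2c-212 (14.4%) and Mef2c-213 (12.3%) each held over 10% of its DN2 WT counts.

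Cebpa, which turns progenitors to granulocytes and monocytes, was at or under the floor at both stages in WT. It had 0, 1 and 3 counts in DN2 WT and 0, 1 and 3 counts in DN3 WT, so no fold is given. The Arpp21-/- libraries had 1 and 0 counts at DN2 and 1, 0 and 7 counts at DN3, the last of these in the outlying replicate 3. At this depth its transcript was not above the floor in any DN2 library. The description of a gene silenced between these stages could therefore not be checked for Cebpa in these data. Bcl11a, Erg and Mef2c were lower but not silent at DN3.

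**Figure D2:**
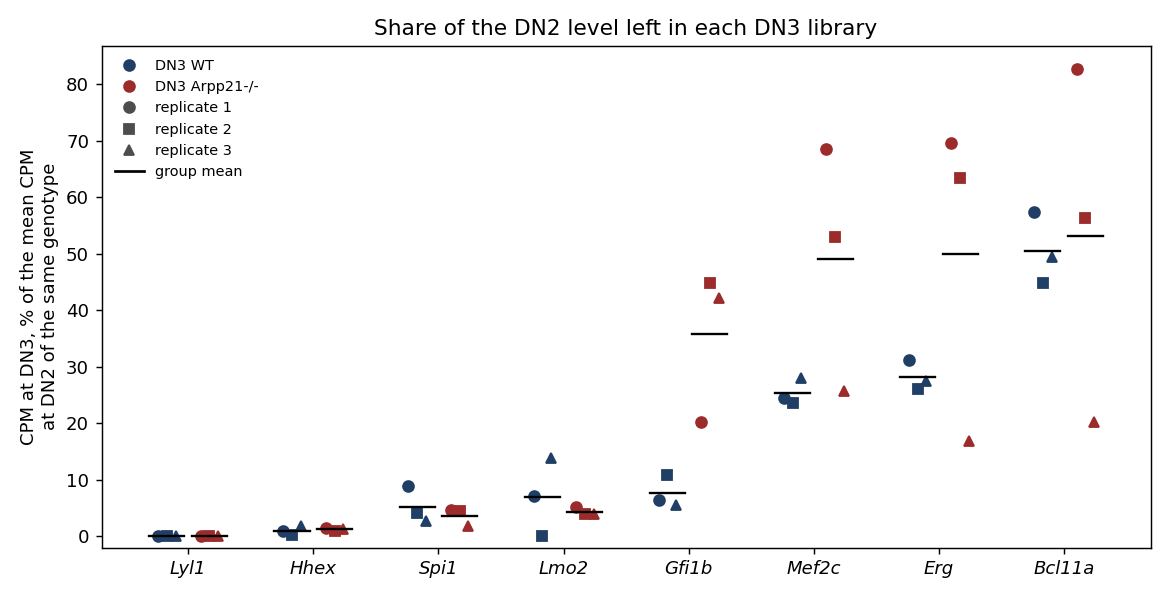
CPM of each DN3 library as a percentage of the mean CPM of the DN2 libraries of the same genotype (vertical axis, linear) for the 8 factors with enough counts, WT in blue and Arpp21-/- in red, shapes for replicate numbers and bars for group means. Lyl1, Hhex, Spi1 and Lmo2 kept on average between 0% and 7.04% of the DN2 mean in both genotypes, and in WT Mef2c, Erg and Bcl11a kept 25.3%, 28.2% and 50.5%. The Arpp21-/- shares of all 8 genes rest on a DN2 mean that includes replicate 2, which lay far below replicate 1 for the 4 genes at the right and above it for Lmo2.

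Levels between genes were compared in TPM, which divide by transcript length. In DN2 WT the order of mean TPM was Spi1 (36.9 ± 8.17), Hhex (29.9 ± 3.68), Mef2c (22.7 ± 1.06), Bcl11a (21.3 ± 2.88), Erg (20.8 ± 4.95), Gfi1b (18.3 ± 1.56), Lyl1 (8.86 ± 1.22), Lmo2 (2.02 ± 0.476), Meis1 (0.492 ± 0.382) and Cebpa (0.0303 ± 0.0313, SD, n = 3). Spi1 and Hhex overlapped between libraries, as did neighbours from Mef2c down to Gfi1b, so the order within each of these runs is not resolved. In DN3 WT the order changed: Bcl11a led at 10.9 ± 1.03 TPM, followed by Erg at 6.96 ± 0.430 and Mef2c at 6.31 ± 0.987, which overlapped each other. Spi1, first at DN2, came after these at 2.61 ± 0.652 TPM and overlapped Gfi1b at 1.54 ± 0.461 TPM. Of the genes that passed the filter over all libraries, 71.8% had a lower mean TPM than Spi1 in DN2 WT and 27.5% in DN3 WT.

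The next question was whether the factors fall in the same way without the long Arpp21 isoform. Between DN2 and DN3 Arpp21-/- thymocytes 9 of the 10 were tested in the fit to all 11 libraries, and 4 were lower, where 2.95% of 13749 genes tested were lower and 1.4% were higher. These were Spi1 (log2 fold change -4.75, SE 0.538, adjusted p = 0.00122), Hhex (-6.29, SE 0.618, adjusted p = 5.70e-04), Lmo2 (-4.48, SE 1.04, adjusted p = 0.0410) and Lyl1. The same 4 had every DN3 library below both DN2 libraries, as had 11.6% of the genes tested. Lyl1, Lmo2 and Meis1 had passed the filter only through DN2 and could not be called higher at DN3. The median log2 fold change of the tested members was -2.68, beside 0.028 over all genes tested.

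These 4 genes were near the floor or well below their DN2 level in all 3 DN3 Arpp21-/- libraries. Spi1 stood at 44.6 and 42.7 CPM in DN2 Arpp21-/- and at 2.02, 1.96 and 0.807 CPM in DN3 Arpp21-/-, which left 3.65% of the DN2 mean. Hhex stood at 30.4 and 28.1 CPM and then at 0.4295, 0.2723 and 0.4035 CPM, with 1.26% left. Lyl1 went from 10.3 and 8.10 CPM to no count in the 3 DN3 Arpp21-/- libraries after rounding, at least 51.7-fold lower than at DN2. Lmo2 went from 1.85 and 6.47 CPM to 0.215, 0.163 and 0.161 CPM, and its call was lost without DN2 Arpp21-/- replicate 2 (adjusted p = 0.183), in which it stood 3.50 times as high as in replicate 1. In the fit with the replicate number as a block, 2 of the 4 calls were left, those of Spi1 and Hhex, with Lyl1 at an adjusted p of 0.0951 and Lmo2 at 0.190, and in a fit to the 5 Arpp21-/- libraries alone none was left (adjusted p between 0.0693 and 0.153, with an unadjusted p under 0.05 for 4 of 8 members tested).

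Bcl11a (-0.91, SE 0.691), Erg (-0.99, SE 0.861), Gfi1b (-1.48, SE 0.766), Mef2c (-1.02, SE 0.521) and Meis1 (-2.68, SE 1.64) did not pass the test between the Arpp21-/- stages, with adjusted p between 0.30 and 0.532. All 5 were lower in DN2 Arpp21-/- replicate 2 than in replicate 1, and the count of members called lower at DN3 went from 4 to 7 once this library and replicate 3 of DN3 Arpp21-/- were left out. In that setting the single DN2 Arpp21-/- library was assumed to vary like the other groups, and Mef2c (-1.37, adjusted p = 0.0124), Bcl11a (-1.32, adjusted p = 0.0331), Erg (-1.51, adjusted p = 0.0126) and Gfi1b (-2.51, adjusted p = 0.0187) were called lower and Lmo2 was not (-3.25, adjusted p = 0.200). For WT in the same 11-library fit, 4 members were called, Spi1 (-4.25), Hhex (-6.61), Gfi1b (-3.71, adjusted p = 0.0238) and Lyl1, and Bcl11a (-0.99, adjusted p = 0.643), Erg (-1.82, adjusted p = 0.348), Mef2c (-1.98, adjusted p = 0.0528) and Lmo2 (-3.78, adjusted p = 0.0648) were not.

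The difference between the genotypes in their stage change was tested as an interaction of stage and genotype. No member passed (edgeR, 0 of 9 tested, 0 at an unadjusted p under 0.05, and 0 adjusted but 1 unadjusted with DESeq2). The largest estimate with an SE under 2 was that of Gfi1b, whose log2 fold change from DN2 to DN3 was higher by 2.23 in Arpp21-/- than in WT cells (SE 1.07, unadjusted p = 0.0635, adjusted p = 0.964). Without DN2 Arpp21-/- replicate 2 and DN3 replicate 3 that of Gfi1b was 1.19 (SE 0.642). For Spi1 (-0.50, SE 0.672) and Hhex (0.32, SE 0.774) the SE was larger than the estimate, and for Mef2c (0.96, SE 0.715) it was smaller but not small enough for a call. With DN2 Arpp21-/- replicate 1 left out, Erg, Gfi1b, Mef2c and Meis1 passed with positive estimates, but DN2 Arpp21-/- is then the outlying replicate 2 alone, assumed to vary like the other groups.

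Arpp21-/- and WT cells were then compared within each stage. At DN2 no member was called (edgeR, 0 of 9 tested, 0 at an unadjusted p under 0.05, and 0 with DESeq2 on either count), and of 13749 genes tested 0% were lower and 0% higher. The estimates ran from -1.56 for Erg (SE 0.914) to 1.13 for Lmo2 (SE 0.922). Spi1 (0.03, SE 0.491) and Lyl1 (-0.17, SE 0.482) had the estimates nearest to 0. For Mef2c, Hhex, Erg and Gfi1b both Arpp21-/- libraries were below all 3 WT libraries, as was the case for 8.27% of the genes tested. Hhex had 30.4 and 28.1 CPM beside 32.3 to 41.6 CPM in WT, and 25.9 and 8.95 TPM beside 27.2 to 34.1 TPM, so the size of its difference in replicate 2 depends on the scale.

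The 2 DN2 Arpp21-/- libraries split the members. Erg stood at 18.9 CPM in replicate 1 and 1.20 CPM in replicate 2, a fold of 15.7, and Gfi1b at 14 and 1.28 CPM, a fold of 10.9. Bcl11a stood at 53.9 and 8.39 CPM, Mef2c at 25.6 and 7.11 CPM, and Meis1 at 1.73 CPM and 0 counts. Spi1, Hhex and Lyl1 by contrast were within 1.27-fold between these libraries on the CPM scale, and Lmo2 was higher in replicate 2. The summed level of the 14 commitment genes described below ranged from 376 to 2464 CPM between these libraries, so a split was not particular to the members. Over all genes that passed the filter the median log2 ratio of replicate 2 to replicate 1 was -0.10. Of these genes 6.22% were below the ratio of Erg, 9.47% below that of Gfi1b, 15.25% below that of Bcl11a and 24.55% below that of Mef2c. These levels depend on the scale, since replicate 2 had a TMM factor of 0.5995. In TPM the median log2 ratio over the same genes was -1.27, and Spi1 was 2.86-fold, Hhex 2.89-fold and Lyl1 3.61-fold lower in replicate 2 while Lmo2 stood at 2.12 and 2.51 TPM. Mef2c was 11-fold, Bcl11a 12.5-fold, Gfi1b 33.97-fold and Erg 46.4-fold lower in TPM, so among the members with counts in both libraries these 4 were the most reduced on both scales.

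Transcript lengths were set beside these ratios. The mean length weighted by counts was 4426 bases for Bcl11a and 3554 bases for Mef2c, which were low in replicate 2, and 1816 bases for Hhex and 1963 bases for Spi1, which were level in CPM but not in TPM. Gfi1b, at 1719 bases, was 10.9-fold lower in CPM, and Lyl1, at 1714 bases, was 1.27-fold lower. The part of transcript length in these ratios was not tested. Without DN2 Arpp21-/- replicate 1, 5 members were called lower in Arpp21-/- at DN2 (Erg, Gfi1b, Bcl11a, Mef2c and Meis1), and without replicate 2 no member was, so these calls rest on 1 library. With replicate 2 and DN3 replicate 3 left out the DN2 estimates were -0.62 for Erg (SE 0.277), -0.58 for Gfi1b (SE 0.493), -0.36 for Mef2c (SE 0.249) and 0.19 for Bcl11a (SE 0.288).

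**Figure D3:**
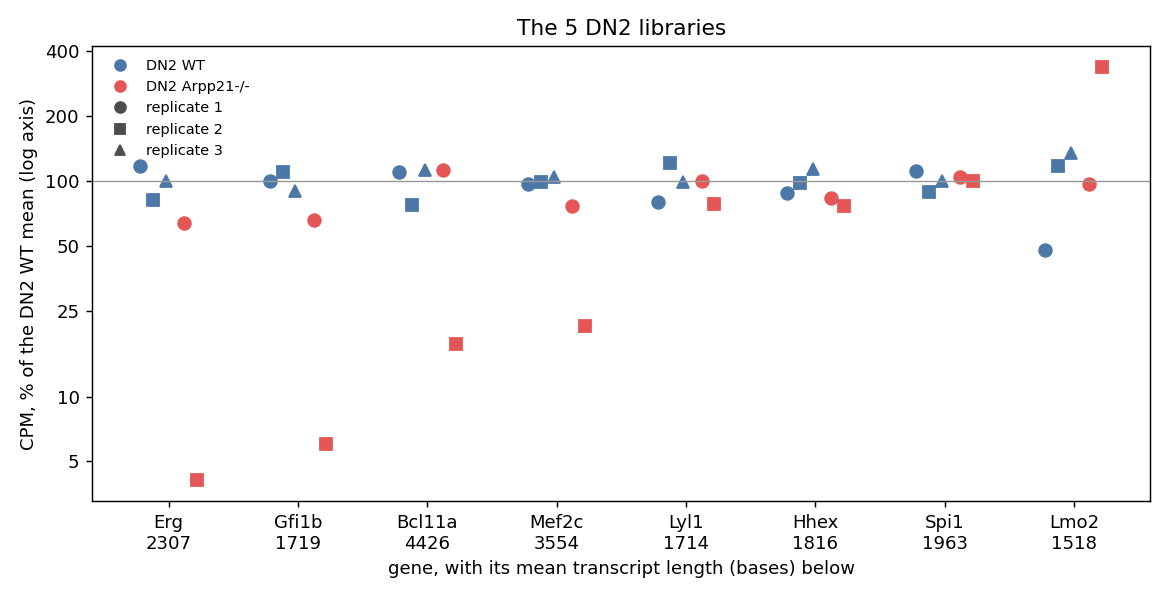
CPM of the 5 DN2 libraries as a percentage of the DN2 WT mean (vertical axis, log scale) for 8 factors, ordered by the ratio between the Arpp21-/- libraries, with the mean transcript length in bases under each name, WT in blue, Arpp21-/- in red and shapes for replicate numbers. Arpp21-/- replicate 2 lay at 4.08% for Erg, 6.03% for Gfi1b, 17.5% for Bcl11a and 21.3% for Mef2c, near 100% for Spi1 and at 340% for Lmo2, where in TPM these 2 lay at 41.7% and 124.5%.

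At DN3 no member was called between genotypes either (edgeR, 0 of 9 tested, 0 at an unadjusted p under 0.05, and 0 with DESeq2 on either count), where 0.00727% of the genes tested were lower and 0% higher. Estimates lay between -0.72 for Erg (SE 0.786) and 0.75 for Gfi1b (SE 0.710), apart from 2.74 for Meis1 (SE 1.95), which had 1 count in WT and 7 counts in Arpp21-/- libraries in all. Erg was lower in all 3 Arpp21-/- libraries, at 7.00, 6.37 and 1.69 CPM beside 7.68 to 9.22 CPM in WT, as were 5.58% of the genes tested. Meis1 was higher in CPM in all 3, as were 4.96%. This separation rests on 1 to 4 counts per Arpp21-/- library and 0 to 1 count per WT library, near or under the floor. Arpp21-/- replicate 3 and WT replicate 1 each had 1 count, so their order came from the scaling. DN3 Arpp21-/- replicate 3 was the lowest library of its stage for Spi1, Mef2c, Bcl11a and Erg, and without it and DN2 replicate 2 the estimate for Erg was -0.32 (SE 0.219). Lyl1 had no count in either genotype and gives no estimate.

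Paralogues of the members, the genes of closest sequence, did not move with them as a group. Of 19 listed paralogues 10 were tested between the WT stages, of which 3 rose and 2 fell, with a median log2 fold change of 0.59. Spib, the nearest relative of Spi1, rose from 3.18, 5.91 and 0.920 CPM in DN2 WT to 67.3, 37.1 and 48.8 CPM in DN3 WT (log2 fold change 3.94, SE 0.60, adjusted p = 0.0046), while Spi1 fell. Per length, Spi1 and Spib stood at 36.9 and 2.17 TPM in DN2 WT and at 2.61 and 39.8 TPM in DN3 WT, so that their order was reversed with no overlap of libraries. Meis3 rose in the same direction from 1.87 ± 0.818 to 11.8 ± 2.87 CPM (SD, n = 3; log2 fold change 2.65, adjusted p = 0.0057), and Mef2a from 30.7 ± 6.76 to 53.9 ± 6.96 CPM (0.80, adjusted p = 0.034).

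Among the other paralogues, Tal1, the bHLH relative of Lyl1, had 26, 98 and 46 counts in DN2 WT and none in DN3 WT, at least 18.5-fold lower against the floor (adjusted p = 0.0095). It passed the filter only through DN2 and could not be called higher at DN3. Fli1, the ETS relative of Erg, fell less than Erg, from 159 to 108 CPM (-0.56, SE 0.15, adjusted p = 0.043), with 108 CPM left in DN3 WT. Bcl11b, the repressor that seals T cell commitment, was at 232 ± 116 CPM in DN2 WT and 513 ± 174 CPM in DN3 WT and did not pass (1.14, SE 0.39, adjusted p = 0.094). Gfi1 (0.72, SE 0.47), Lmo4 (-0.42, SE 0.21), Mef2d (0.46, SE 0.33) and Cebpg (-0.13, SE 0.27) did not pass either. In Arpp21-/- cells 14 of the 19 were tested, with 1 higher, Mef2b, and 1 lower, Tal1, and without the outlying libraries 15 were tested, with 1 higher, Spib, and 0 lower.

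**Figure D4:**
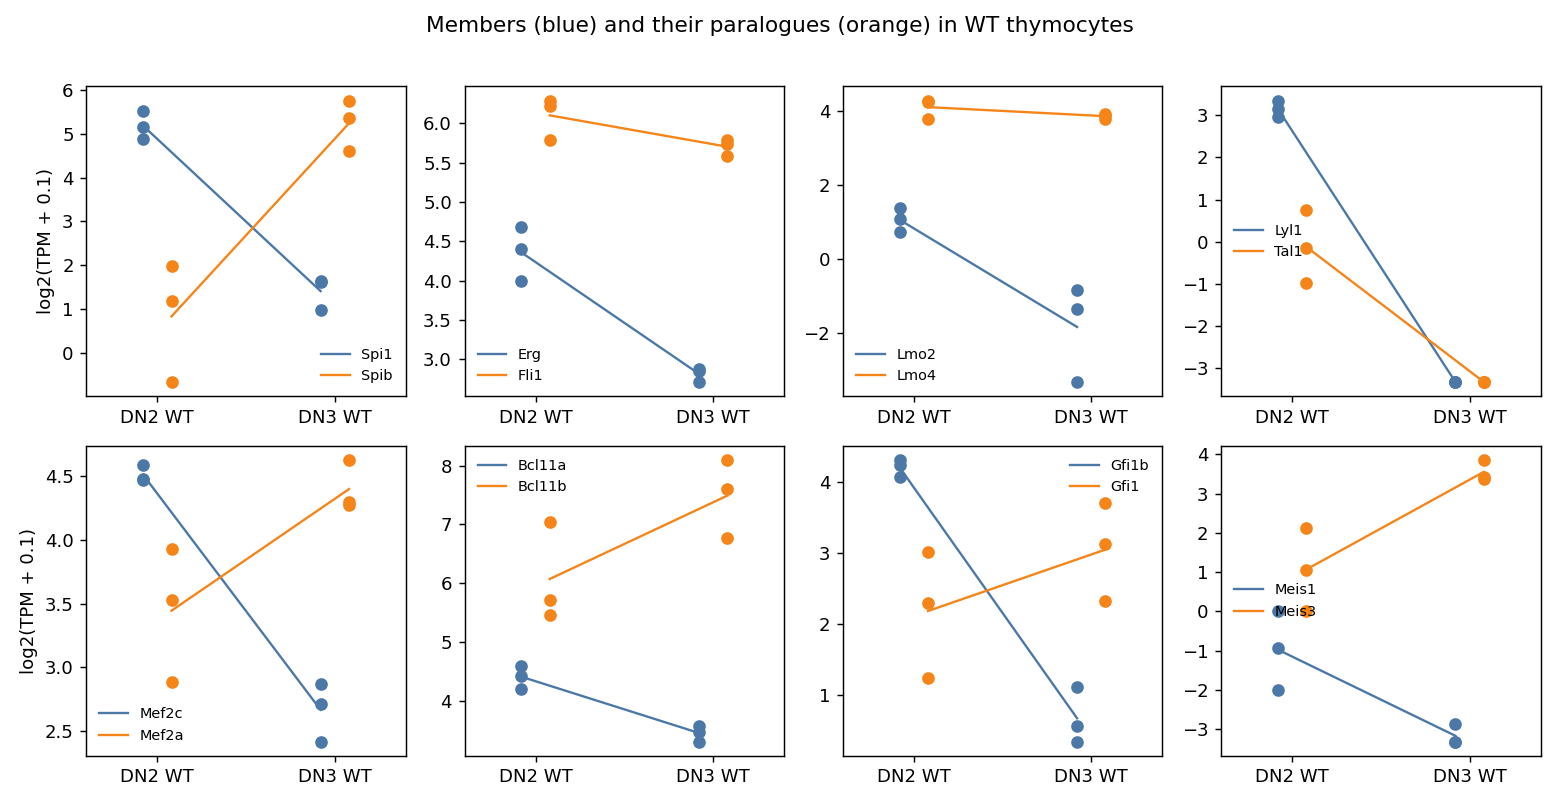
Level of 8 members (blue) and a paralogue of each (orange) in the 3 DN2 WT and 3 DN3 WT libraries as log2(TPM + 0.1) (vertical axis, its own range for each pair), with points for libraries and lines between group means. Spib rose above Spi1, and Meis3 and Mef2a rose while Meis1 and Mef2c were lower, whereas Tal1 went to 0 with Lyl1.

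Genes that encode partners of the members moved in both directions. Of 25 listed, 22 were tested between the WT stages, 2 fell and 5 rose, with a median log2 fold change of -0.0029. Tal1 and Hoxa9 (-4.19, SE 0.85, adjusted p = 0.015), which pair with Lmo2 and with Meis1, fell. Hdac4, a class IIa deacetylase that binds MEF2 proteins, rose from 48.2 to 646 CPM (3.73, SE 0.16, adjusted p = 2.6e-05), and Hdac7, of the same class, from 92.5 to 202 CPM (1.12, SE 0.08, adjusted p = 2.2e-04). Irf4, a partner of PU.1 and Spi-B, had no count in DN2 WT and 1.39 CPM in DN3 WT, at least 10.9-fold higher, and Tcf12 (0.69, adjusted p = 0.0069), an E protein, also rose. Tal1 and Hoxa9 passed the filter only through DN2 and Irf4 only through DN3, so each could be called in no other direction. Ldb1 (0.07, SE 0.52), which links LMO2 complexes, and Tcf3 (-0.11, SE 0.22) were not called.

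Other genes of the progenitor program were mostly lower at DN3. Of 16 listed, 12 were tested, and 9 fell and 0 rose between the WT stages, with a median log2 fold change of -2.63. Cd34 fell by 7.51 on the log2 scale (adjusted p = 3.2e-06). Flt3, a cytokine receptor, had a log2 fold change of -3.87 (adjusted p = 0.011), and Hoxa9 and Tal1, given above, are also in this list. Flt3, Hoxa9 and Tal1, at 7.09 estimated counts or fewer in each DN3 WT library, passed the filter only through DN2. They could therefore not be called higher at DN3, which bears on the count and on the median. Prdm16 (0.44, SE 0.49), Irf8 (0.29, SE 0.33) and Zfpm1 (-0.80, SE 0.55) were not called. Between the Arpp21-/- stages 15 were tested and 5 fell, and 5 of 15 also fell without the outlying libraries, of which Cd34, Mycn and Nfe2 were in both counts.

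The T cell side moved the other way. Of 14 genes of the commitment program, all 14 were tested, and 9 rose and 1 fell in WT. Lef1 rose from 15.9 to 565 CPM (log2 fold change 5.14, SE 0.13, adjusted p = 2.1e-06), Ikzf3 from 0.118 to 4.78 CPM (5.21, adjusted p = 0.0072), Notch3 from 46.0 to 405 CPM (3.13, adjusted p = 3.6e-04) and Ets2 from 23.6 to 138 CPM (2.53, adjusted p = 1.1e-04), and Runx3 fell (-1.59, adjusted p = 0.010). Ikzf3, at 7 counts or fewer in each DN2 WT library, passed the filter only through DN3 and could not be called lower. Gata3 (0.08, SE 0.12) was not called. Of 9 T identity genes 8 rose, led by Ptcra (7.75), Rag1 (6.54), Cd3d (5.63) and Cd3e (3.16), and Il2ra, the CD25 of the gate, was not called (0.04, SE 0.23).

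Most of the tested myeloid genes were lower at DN3 as well. Of 17 listed, 11 were tested, and 8 fell in WT, among them Mpo (from 141.5 to 0.339 CPM) and Tyrobp (from 53.5 to 0.369 CPM), Ctsg (from 6.13 CPM to 0, at least 46.2-fold) and Fcgr3 (from 0.954 CPM to 0, at least 7.19-fold). These genes, at 0.369 CPM or less on average in DN3 WT, passed the filter only through DN2. They could not be called higher at DN3, which bears on the count. Csf2ra (log2 fold change -0.54, SE 0.28), Csf2rb (-1.24, SE 1.29) and Cd68 (0.05, SE 1.08) were tested and not called. The summed level of the 17 genes was lower at DN3 in both genotypes. In WT libraries it ranged from 245 to 339 CPM at DN2 and from 38.0 to 47.7 CPM at DN3. In Arpp21-/- libraries the ranges were 375 to 439 CPM and 42.4 to 52.9 CPM. The granule gene Elane was at 0 counts in every group, while S100a8 and S100a9 were under 1 CPM on average. Whether a share of other cells carried part of the members' DN2 levels was not tested.

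Of 5 genes each, the lists of B cell, dendritic and NK or innate lymphoid markers summed in DN2 WT to 38.6 to 49.6, 14.99 to 25.6 and 5.55 to 7.93 CPM. Pax5, Clec9a and Ncr1 were at 0 counts in both DN2 groups. In the tests between WT stages Cd79b rose (0.57, adjusted p = 0.025), and Itgax (-5.35, adjusted p = 0.0013) and Zbtb16 (from 5.29 CPM to 0, at least 39.9-fold) fell, each the sole gene of its list that was tested. Of 9 red cell and megakaryocyte genes 6 were tested, with a median log2 fold change of 0.19. Itga2b (from 23.3 to 0.0142 CPM) and Hbb-bt (from 388 to 4.39 CPM) fell, and Hba-a1 (0.54, SE 0.567), Hba-a2 (0.42, SE 0.536), Gata1 (0.46, SE 0.308) and Hbb-bs (-0.03, SE 0.376) were not called. The list had a sum of 427 to 514 CPM in DN2 WT and 52.9 to 103 CPM in DN3 WT and Pf4 at 0 counts in DN2 WT. In Arpp21-/- libraries its sum was 383.5 and 1592 CPM at DN2, below and far above the WT range, and 48.35 to 171.3 CPM at DN3. Of 5 mast cell and basophil genes Cpa3 fell from 754 to 20.2 CPM, and Fcer1a and Tpsb2 were at 0 counts in all 4 groups. Of 3 genes of double positive thymocytes Cd8b1 rose from 0.663 to 8.08 CPM, and the γδ T cell genes Trdc (0.37, SE 0.10) and Sox13 (-0.01, SE 0.62) were not called. Their part in the members' levels was not tested.

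Genes with a pattern most like that of the members were found by Pearson correlation of log2 CPM with the mean z-score of the 9 members that passed the filter over all libraries. Across the 6 WT libraries these were Adgrg1 (r = 0.999, 1717 CPM in DN2 WT and 489 CPM in DN3 WT), Robo3 (r = 0.998), Igfbp4 (r = 0.998, 376 and 9.56 CPM), Esm1 (r = 0.998) and Esyt1 (r = 0.998). Across all 11 libraries they were Nrgn (r = 0.987, 57.7 and 2.53 CPM), Btk (r = 0.985, 63.7 and 3.29 CPM), Ticam2 (r = 0.985), Fut8 (r = 0.982) and Muc13 (r = 0.982). The points fall into the DN2 and DN3 groups and share their libraries and depth, so r describes a shared step between stages and no more.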

How the data were processed

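RNA of sorted thymocytes was sequenced with a low-input SmartSeq V4 and Nextera kit, from total RNA per the labels and with poly-A selection per the study's methods. The authors deposited, for each library and transcript, estimated counts, TPM and effective lengths which they made by running kallisto 0.46 on trimmed reads against GRCm38 transcripts (Ensembl 101). The estimated counts are not normalized and reads that match several transcripts are shared out among them. The deposited TPM also take effective length and library size into account.

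GENCODE M21 identifiers gave the gene of 116640 of 119414 transcripts, and gene sums of the estimated counts were rounded. A filter on low counts followed, filterByExpr (minimum count 10, minimum total 15), and genes were tested two-sided with edgeR 4.0.16 in R 4.3.3 (TMM, glmQLFit, glmQLFTest), with Benjamini-Hochberg adjustment over all genes tested. The stage change in WT was fitted to the 6 WT libraries (12472 genes) and the other comparisons to all 11 libraries in 4 groups (13749 genes). Listed genes near the floor at a stage, such as Mef2b and Zbtb16, passed the filter only through the other stage and could be called in no other direction. The SE of a log2 fold change is approximate, its size over the root of F. Intervals and floors cover counting error alone, since the kit has no molecular identifiers.

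The members, the gene lists and the rule for named genes were chosen with earlier results of these data known. The rule names the members, Arpp21, up to 4 called genes per list and direction, the tested paralogues, the 5 genes of most similar pattern and transcripts over 10% of a member's counts. Genes named beyond it, chosen after their values were seen, are those not called in a list, markers at or near 0, and the examples used to check stages. Transcript shares of Lmo2, Meis1 and Cebpa, which had few counts, are not given although the rule covers them. In WT, same-numbered DN2 and DN3 libraries deviated together (r = 0.791, 0.442 and 0.671 over 5328 genes), so the numbers were taken to pair them, although DN2 replicate 3 and DN3 replicate 2 also did (r = 0.446). The main fits did not use this pairing, which entered only as the replicate block among the alternatives. No replicate pair differed by less than counting noise. Alternatives were DESeq2 1.42.0, its size factors in edgeR, no filter, an offset for transcript length, other sets of libraries, limma 3.58.1 (limma-trend on log2(TPM + 1) and log2(TPM + 0.1), and voom with sample weights), a replicate block and each library left out. The fit was tested on simulated data. Values of 1 marker gene are not reported here. Tables and plots were made with matplotlib 3.10.9, scipy 1.17.1, pandas 2.3.3 and numpy 2.4.6 under Python 3.11.15.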

Additional observations from a re-analysis of the deposited data

How the results depend on the processing

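The 8 members tested between the WT stages were lower in every setting run, and 8 were called, with 7 to 9 in all other settings except 4 in the fit to all 11 libraries and 6 to 8 with single libraries left out. Over all genes, 2000 were called (1212 lower, 788 higher), 566 with all 11 libraries and 982 to 2226 with single libraries left out, and log2(TPM + 1) moved the split to 810 lower and 945 higher. The replicate block called 2880 genes there and changed no member's call. Between the Arpp21-/- stages 597 genes were called, beside 1600 with DESeq2, 0 with the Arpp21-/- libraries alone, 140 with voom weights, 897 without both outlying libraries, 120 with the replicate block and 281 to 6753 with single libraries left out, and the 4 members became 0 with the Arpp21-/- libraries alone, 7 without both outlying libraries and 2 with the block. Between genotypes DESeq2 called 38 genes at DN2, 16 at DN3 and 10 for the interaction, where edgeR called 0, 1 and 0 (2019, 214 and 372 at an unadjusted p under 0.05). At DN3 the count was 0 with the DN3 libraries alone, 2 with log2(TPM + 0.1), 118 with voom weights, 5 without both outlying libraries, 0 with the block and 0 to 1 with single libraries left out. Leaving out single libraries gave 0 to 6773 at DN2 and 0 to 3661 for the interaction, with 0 to 5 and 0 to 4 members, the highest of these counts, and 6753 above, without DN2 Arpp21-/- replicate 1.

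With 2 DN2 Arpp21-/- libraries the deviations are mirror images, so whether the Arpp21-/- numbers pair could not be checked. DN2 replicate 2 deviated together with DN3 replicate 3 (r = 0.885) and opposite to DN3 replicate 2 (r = -0.852), and the block used the numbers all the same. With the Arpp21-/- replicate numbers as a block, calls fell as given above, which does not describe a weaker effect. Log2 fold changes turned for members that were not called. Between the Arpp21-/- stages Bcl11a (0.078), Meis1 (0.90) and Erg (0.79) turned with voom weights and Erg also with log2(TPM + 0.1) (0.36) and with the replicate block (0.44). Leaving out single libraries gave -1.70 to 0.19 for Mef2c, -1.73 to 0.99 for Bcl11a, -3.71 to 4.64 for Meis1, -1.93 to 2.08 for Erg and -2.39 to 1.09 for Gfi1b. Between genotypes at DN2, Spi1 turned with log2(TPM + 1) (-0.46), log2(TPM + 0.1) (-0.48) and the replicate block (-0.24), and without both outlying libraries Lmo2 (-0.026), Lyl1 (0.014), Bcl11a (0.19) and Meis1 (0.76) turned. Single libraries left out gave -0.01 to 0.11 for Spi1, -0.02 to 1.75 for Lmo2, -0.36 to 0.031 for Lyl1, -2.52 to 0.19 for Bcl11a and -7.58 to 0.76 for Meis1. At DN3, Spi1 turned with voom weights (0.14), Mef2c with the length offset (0.12), voom weights (0.12) and without both outlying libraries (0.23), and Hhex with DESeq2 (0.021), its size factors (0.018), the length offset (0.08), log2(TPM + 0.1) (0.041), voom weights (0.285) and the replicate block (0.13). Single libraries left out gave -0.78 to 0.13 for Spi1, -0.15 to 1.36 for Lmo2, -0.39 to 0.23 for Mef2c and -0.48 to 0.71 for Hhex. Except where fewer libraries entered the fit, the cause was not tested. Depth limits Cebpa, Meis1, Lmo2 and the DN3 values of Hhex and Lyl1, which rest on few counts or none.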
